A study of Homo sapiens with 3 samples.

Results

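The comparison set the library labelled 45 days of NEUROD1 induction against the library labelled 15 days, in blood vessel organoids harvested at day 45. Its members were the barcodes of these 2 libraries with 1000 or more unique molecular identifiers (UMIs), 500 or more detected genes and no more than 20% mitochondrial UMIs, in which ALB, AFP, APOA1, APOA2 and TTR together made up under 1% of the UMIs. This gave 14826 cells, 9643 at 45 days and 5183 at 15 days, of 26959 barcodes in the 3 libraries of the series and of 23649 cells that passed the same rule in all 3. The organoids were grown from the human embryonic stem cell line H1 after PiggyBac transposition of a NEUROD1-P2A-GFP cassette that doxycycline switches on. Doxycycline was given at 1 µg/ml in both groups, for 45 days or for 15 days, and the labels do not say which 15 days these were. Both groups, and the uninduced library used here as a reference level, received BDNF and NT-3 from day 15. Each library pooled 5 to 6 organoids dissociated with papain. There was 1 library per group, so no difference below has a replicate check, and no test was possible. The intervals given are exact 95% intervals that cover counting error only.

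NEUROD1 is a basic helix-loop-helix transcription factor that drives neuronal differentiation and is used to turn stem cells into neurons. Blood vessel organoids hold endothelial cells, which line vessels, and mural cells, which wrap them, within a bed of mesenchymal cells that lay down collagen and other matrix. Mesenchyme carries positional codes, among them the HOX genes and the limb-type factors PRRX1, TWIST1, PITX1 and LHX9.

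The median member cell had 5697 UMIs and 3.00% mitochondrial UMIs at 45 days, and 7345 UMIs and 3.83% at 15 days. The members held 63000967 and 45781614 UMIs. The libraries shared 15 barcodes, 9 of them among members, which is 0.174% of the smaller set. The limit on the 5 liver genes left out 1 cell at 45 days and 120 cells at 15 days. At 15 days the highest cell inside the limit had 0.992% and the lowest outside 1.02%, with 46 cells between 0.5% and 1% and 46 between 1% and 2%, so the limit cut through a continuous range there. At 45 days the highest cell inside had 0.294% and the cell outside 3.27%. The summed level of the 14 endothelial markers was 597 and 1157 CPM (UMIs scaled to the total of the library or class) at 45 and 15 days, that of the 12 mural markers 310 and 386 CPM, that of the 12 mesenchymal markers 3994 and 3161 CPM, and that of the 15 neuron markers 1838 and 4490 CPM. Vascular, mesenchymal and neuronal markers were thus found in both libraries.

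NEUROD1 (ENSG00000162992; GRCh38, chr2:181673088-181680876, minus strand), the induced factor, stood at 42.7 CPM at 45 days, 1.49 CPM at 15 days and 0.0521 CPM without induction. The plain fold between 45 and 15 days was 28.7 (22.6 to 37.1). The order of the 3 libraries followed the length of induction. The level at 15 days rested on 68 UMIs, of which 10 cells held 61.8%, and in the 45 day library 10 cells held 16.9% of 2690 UMIs. Neuron-like cells, defined below, carried 88.5% of the NEUROD1 UMIs at 45 days and 91.2% at 15 days. The kit reads the 3′ end of transcripts, and how far cassette transcripts are counted under NEUROD1 is not given in the sources used here, so these counts do not measure the cassette.

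Few genes differed by 2-fold or more, and more of them were lower than higher at 45 days. The ratio used throughout is log2 of the CPM at 45 days over that at 15 days with 5 CPM added to each side, and a gene was counted when it was past 2-fold on this scale and had at least 20 CPM in 1 of the 2 libraries. Of 6778 genes tested, 12 were higher at 45 days (0.177%) and 99 were lower (1.46%). The median log2 ratio of all genes tested was -0.06. At 50 CPM or more, 9 of 3092 genes were higher (0.291%) and 45 lower (1.46%). The 12 higher genes were NEUROD1 and 11 others, 7 of them on the list of limb mesenchyme factors. Mesenchymal-like cells held more of the UMIs of 10 of the 12 at 45 days than any other class. They also held 62.0% of all member UMIs there, and the same count over all genes was not made. With the same mix of clusters in both libraries 7 genes were higher, of which 3 (NEUROD1, LHX9 and ASPN) were among the 12; the other 9 of the 12 had log2 ratios from 0.20 for PRRX1 to 0.85 for PRRX2. CXCL14, a chemokine made by epithelia and fibroblasts, had its largest share in epithelial-like cells.

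**Figure D1:**
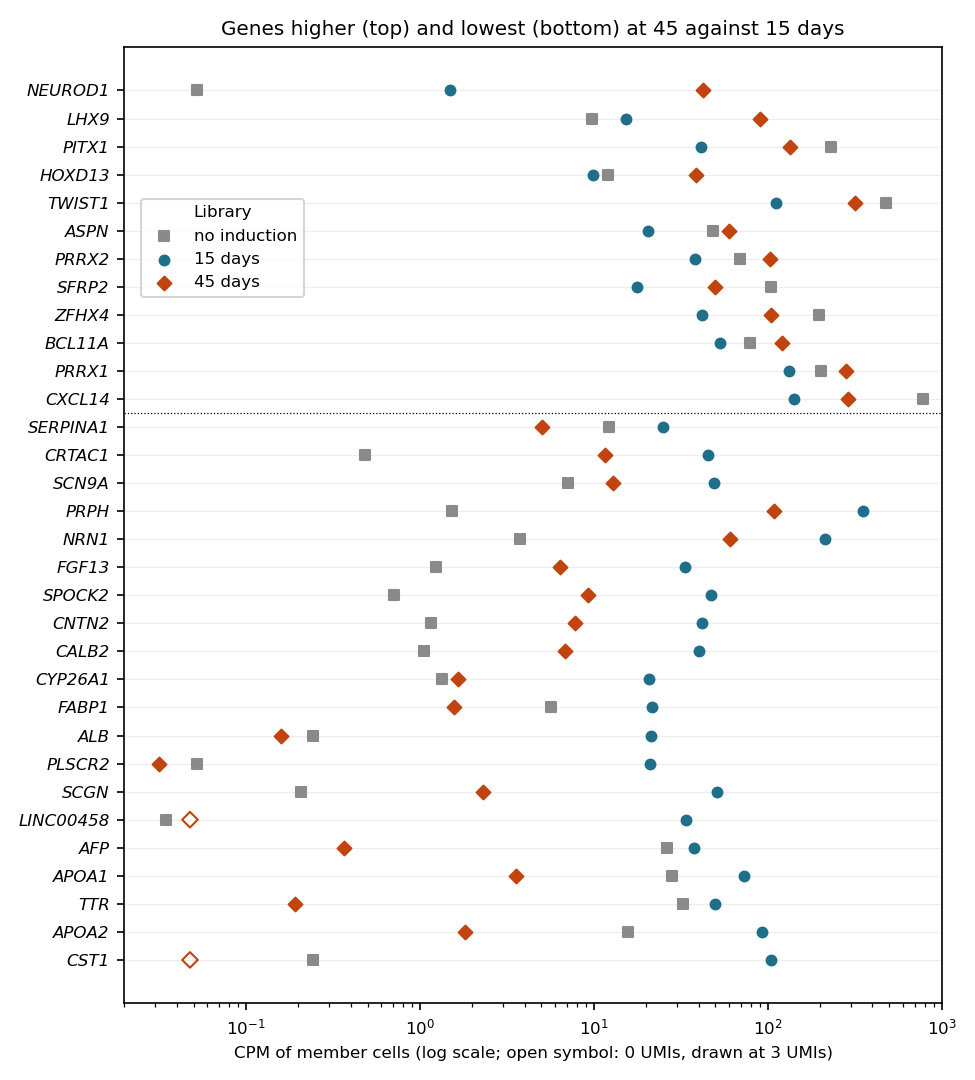
CPM of the 12 genes at least 2-fold higher (above the dotted line) and of the 20 lowest genes (below it) in the member cells of the 3 libraries, on a log axis. Each point is 1 library, and open symbols mark 0 UMIs, drawn at the level of 3 UMIs. PITX1, TWIST1, SFRP2, ZFHX4 and CXCL14 were higher without induction than in either induced library, whereas LHX9 stood at 90.5 CPM at 45 days and at 15.3 and 9.73 CPM in the others.

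LHX9 (GRCh38, chr1:197911902-197935478, plus strand), a LIM homeobox factor of limb and gonad mesenchyme, was at 90.5 CPM at 45 days, 15.3 CPM at 15 days and 9.73 CPM without induction, 5.90-fold (5.45 to 6.39) between 45 and 15 days. HOXD13 (chr2:176092891-176095938, plus strand), which patterns the digits, was at 38.8, 9.83 and 12.1 CPM. These 2 genes stood apart at 45 days, with the other libraries close to each other. A second pattern was a low value at 15 days between higher values on both sides. PITX1, a hindlimb factor (chr5:135027735-135034813, minus strand), was at 135 CPM at 45 days, 41.2 at 15 days and 231 without induction. TWIST1 (chr7:19020991-19117672, minus strand), a helix-loop-helix factor of mesenchyme, was at 317, 112 and 479 CPM. ZFHX4, a zinc finger homeobox gene, was at 105, 41.7 and 198 CPM, and SFRP2, a secreted WNT antagonist, at 49.5, 17.7 and 104 CPM. For these genes the 15 day library was the low one, and the 45 day value lay below the uninduced one. ASPN, a small proteoglycan of connective tissue, was at 60.0, 20.4 and 48.1 CPM. PRRX2 was at 103, 38.2 and 69.7 CPM, PRRX1 at 281, 133 and 202 CPM, and BCL11A at 121, 53.5 and 78.6 CPM; for these the 45 day value was the highest of the 3.

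The list of limb mesenchyme factors had 25 of 31 members at 5 CPM or more in 1 of the 2 libraries, the level used for lists. Of these, 7 were at least 2-fold higher at 45 days, 0 lower, and the median log2 ratio was 0.52. Over all 11839 genes at that level 20 were higher (0.169%), 133 lower (1.12%), and the median was -0.06. The list was not uniform. DLX5, a homeobox factor, and SALL4, a zinc finger factor, both also used in limb buds, had log2 ratios of -0.44 and -0.43. Of 11 measured posterior HOX genes, HOXD13 was past 2-fold and HOXA13 came next at 93.6 against 44.5 CPM (log2 ratio 0.99), with a list median of 0.28. Of 13 measured anterior HOX genes none passed 2-fold in either direction, and the median was -0.28. HOXB8, HOXB2 and HOXB6 were the lowest of them, at log2 ratios of -0.56, -0.52 and -0.50. Of 15 measured factors of visceral and other mesoderm none passed 2-fold, and the median was -0.62. TCF21, a factor of visceral and cardiac mesenchyme, was at 30.7 CPM against 65.1 CPM, and FOXF1, which acts in gut mesenchyme, at 4.38 against 13.2 CPM.

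The cells fell into 7 named classes, and their shares differed between the libraries. Mesenchymal-like cells made up 69.8% (68.9 to 70.7) of members at 45 days and 58.2% (56.9 to 59.6) at 15 days. Endothelial-like cells made up 2.44% (2.14 to 2.76; 235 cells) against 6.60% (5.94 to 7.31; 342 cells). Neuron-like cells made up 3.27% (2.92 to 3.64; 315 cells) against 5.87% (5.24 to 6.54; 304 cells), and their share of all UMIs was 5.28% against 11.8%. Thus both the endothelial-like and the neuron-like share were lower at 45 days. Haematopoietic-like cells made up 0.964% against 1.95%. Mural-like cells made up 9.83% (9.24 to 10.4) against 13% (12.1 to 13.9), but with a finer clustering these shares were 8.10% (7.56 to 8.66) and 8.61% (7.86 to 9.40), whose intervals overlap. Cycling cells made up 7.32% and 6.64%, and epithelial-like cells 6.17% and 5.15%. Without induction 0 of 8823 cells were neuron-like; taking 3 cells as the most that a count of 0 allows, the share was at most 0.0340%. The median depth per cell was lower at 45 days in each named class, and its part in these shares was not tested. Shares also depend on what the dissociation released.

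**Figure D2:**
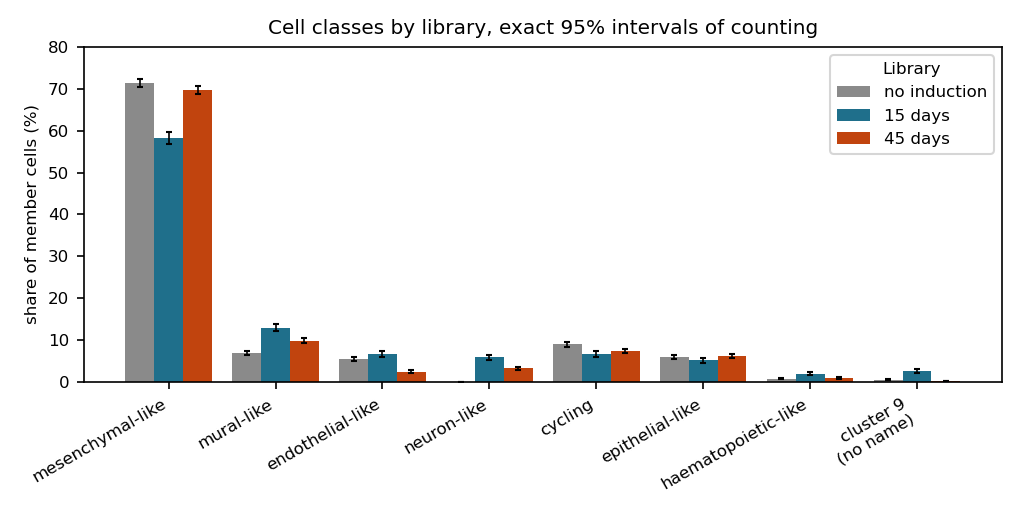
Share of member cells in each class (y axis, percent) for the library without induction, at 15 days and at 45 days, with exact 95% intervals of counting as bars. Endothelial-like cells stood at 2.44% at 45 days against 6.60% at 15 days, and neuron-like cells at 3.27% against 5.87%.

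Most of the 99 lower genes had the largest part of their UMIs in neuron-like or endothelial-like cells. At 15 days neuron-like cells held the largest part of the UMIs for 46 of them, endothelial-like cells for 25, mesenchymal-like cells for 14, the unnamed cluster 9 for 11, epithelial-like cells for 2 and haematopoietic-like cells for 1. Of all member UMIs at 15 days, neuron-like cells held 11.8%, endothelial-like cells 7.41% and mesenchymal-like cells 49.4%. The same split over all genes was not made. Mesenchymal-like and epithelial-like cells had larger shares at 45 days. When both libraries were given the same mix of classes, 27 genes were lower, 24 of them among the 99. In a sum over all cells, fewer cells of a type and less RNA per cell cannot be told apart. The neurofilament and axon list and the endothelial list are therefore also given within their class below, though not each named gene.

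Among neuronal genes, the structural and secretory ones were lower in the sum of all members. Of 24 measured genes of neurofilaments and axons, 8 were at least 2-fold lower and 0 higher (median log2 ratio -0.90). NEFL, the light neurofilament chain, was at 312 against 832 CPM, PRPH, the peripheral neurofilament protein peripherin, at 109 against 353 CPM, and NRN1, a neurite growth factor, at 60.8 against 215 CPM. All 3 were under 12 CPM without induction. Of 20 measured genes of synapses and secretory granules, 5 were lower and 0 higher (median -0.68). SNAP25, a vesicle fusion protein, was at 26.3 against 68.5 CPM. SCN9A, a sodium channel of sensory neurons, was at 12.8 against 49.4 CPM and was the channel gene past 2-fold among 13 measured. The 9 measured factors of neuron identity had a median of -0.78, with none past 2-fold. The neurogenic list was mixed: NEUROD1 was higher, ELAVL4, a neuronal RNA-binding protein, was lower at 30.6 against 71.1 CPM, and the median of 13 was 0.15.

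Of 22 measured endothelial genes 13 were at least 2-fold lower, 0 higher, with a median log2 ratio of -1.08. KDR, the main VEGF receptor, was at 27.1 CPM against 82.0 CPM, PECAM1, a junction protein, at 38.1 against 101 CPM, CDH5, VE-cadherin, at 21.4 against 56.3 CPM, and PLVAP, a protein of fenestrae, at 26.7 against 81.2 CPM. The 16 measured mural genes had a median of -0.18 with none past 2-fold. RGS5, a pericyte marker, was the lowest of them at 62.4 against 121 CPM. None of 13 measured haematopoietic genes passed 2-fold (median -0.71), and C1QC, a complement gene of macrophages, was at 28.8 against 60.2 CPM.

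Several of the lowest genes came from cluster 9, which held 19 member cells at 45 days, 134 at 15 days and 47 without induction. It was led by CST1, LINC00458, SPINK1, APOA2 and GNRH2 and stayed unnamed under the naming rule. SPINK1, a gut epithelium marker, and VTN, a hepatocyte marker, were both among its leading genes. Most of its cells came from the 15 day library. Whether the cluster is a cell type or a feature of that library was not tested. Its cells had a median of 0.321% and 0.698% mitochondrial UMIs at 45 and 15 days. CST1 (chr20:23747553-23751268, minus strand), a secreted cysteine protease inhibitor, had 0 UMIs at 45 days and 105 CPM at 15 days. Taking 3 UMIs for the library as the floor, it was at least 2204-fold lower. LINC00458 (chr13:54115783-54132866, minus strand), a long noncoding RNA of pluripotent stem cells, had 0 UMIs against 33.7 CPM, at least 707-fold lower. CYP26A1, which breaks down retinoic acid, was at 1.65 against 20.7 CPM. In the 15 day library 10 cells held 63.5% of the CST1 UMIs, 59.7% of the LINC00458 UMIs and 60.4% of the CYP26A1 UMIs, so these differences rested on few cells. Without cluster 9 the log2 ratio of CST1 was -0.83 in place of -4.46, and that of CYP26A1 -0.50 in place of -1.95.

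Liver secretory genes were found in all 7 named classes at 15 days and were near 0 there at 45 days, while cluster 9 held much of the UMIs of some of them. ALB, AFP, APOA1, APOA2 and TTR chose the members, so their values are a description. In the 7 named classes at 15 days ALB, serum albumin, lay between 15.2 and 24.0 CPM, AFP, fetal albumin, between 19.8 and 48.0 CPM, and TTR, a thyroid hormone carrier, between 13.2 and 22.7 CPM. Per ALB UMI these cells held 1.30 to 2.0 AFP UMIs and 0.797 to 1.02 TTR UMIs, and the 120 cells left out held 2.08 and 1.03. At 45 days no named class exceeded 1.80 CPM for ALB, 0.554 CPM for AFP or 0.227 CPM for TTR. Genes outside the rule ran the same way: SERPINA1, a protease inhibitor of plasma, lay between 9.45 and 20.5 CPM in the classes at 15 days and at up to 2.95 CPM at 45 days, and APOC3, a lipoprotein component, between 7.60 and 25.3 CPM and up to 0.0768 CPM. In cluster 9 at 15 days TTR was at 799.7 CPM, APOA1 at 1219 CPM and APOA2 at 1762 CPM, which made up 61.9%, 64.4% and 73.2% of the UMIs of these genes in the library's members. SERPINA1 was at 1209 CPM in cluster 9 at 45 days, where it held 295 UMIs, and at 208 CPM at 15 days. In all members, APOC3 was at 0.206 against 16.4 CPM, VTN, vitronectin, at 0.333 against 17.5 CPM and AHSG, fetuin-A, at 0.0794 against 8.61 CPM. Of 9 measured genes of this list 5 were lower, CST1 among them, and 0 higher. In the uninduced library AFP was at 26.2 CPM and TTR at 32.7 CPM, with ALB at 0.243 CPM.

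Signalling, matrix and metabolic lists differed little. The 12 fibrillar collagen genes had a median log2 ratio of 0.21 with none past 2-fold. COL1A2 was at 704 against 488 CPM, COL1A1 at 436 against 343 CPM and COL3A1 at 1436 against 1463 CPM. The uninduced values of these genes, 1866, 1653 and 3661 CPM in the same order, lay above both induced libraries. Of 17 basement membrane genes none passed 2-fold and the median was -0.31; HSPG2, perlecan, was at 65.7 against 129 CPM. Of the 6 measured leucine-rich proteoglycan genes ASPN alone passed 2-fold, and DCN, decorin, was at 120 against 70.4 CPM. Among 19 BMP and TGF-beta genes, GREM1, a secreted BMP antagonist, was past 2-fold at 19.8 against 6.57 CPM. Among 19 WNT genes, SFRP2 was higher and DKK1 lower. DKK1 (chr10:52314296-52318042, plus strand), a secreted antagonist of WNT co-receptors, was at 102 CPM against 254 CPM and at 82.8 CPM without induction. WNT target genes were under 2-fold, with AXIN2 at 8.08 against 3.71 CPM and NKD1 at 10.5 against 4.67 CPM.

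IGFBP3, which binds insulin-like growth factors, was at 155 against 389 CPM, the gene past 2-fold among 20 of the FGF, IGF and hedgehog pathways. GDF15, a stress-induced cytokine, was at 14.1 against 45.0 CPM, and the other 19 measured immediate early and stress genes stayed under 2-fold. All 20 cell cycle genes had log2 ratios above 0, between 0.02 for MCM6 and 0.42 for CCNB2, with none past 2-fold. The 13 mitochondrially encoded genes had a median of -0.20. The 27 hypoxia and glycolysis genes had a median of 0.00, the 20 genes of NOTCH, VEGF and angiopoietin signalling one of -0.38, and the 21 genes of axon guidance and neurotrophin supply one of 0.12, each with none past 2-fold. NTF3, which encodes NT-3, was at 12.5 against 6.05 CPM, and EPHA4, a guidance receptor, at 60.0 against 30.4 CPM.

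**Figure D3:**
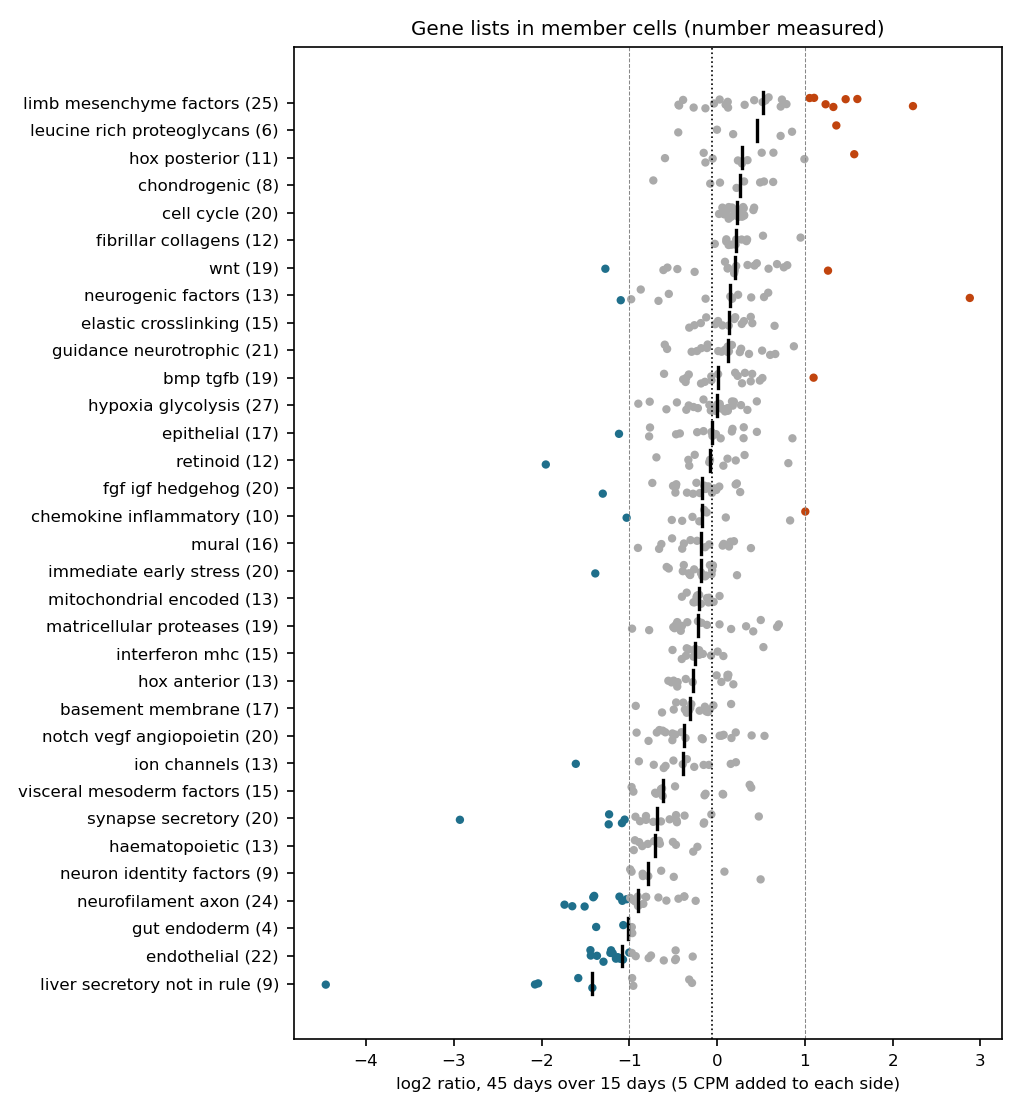
Log2 ratio of each measured list member (points, past 2-fold in colour) with the list median (black bar), ordered by median, in member cells. The dotted line is the median of all genes (-0.06) and the dashed lines mark 2-fold; limb mesenchyme factors lie highest (median 0.52) and endothelial genes near the bottom (-1.08).

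Within mesenchymal-like cells the limb-type factors were again higher at 45 days. Of 6142 genes tested 13 were higher (0.212%) and 28 lower (0.456%). LHX9 was at 109 against 26.0 CPM, PITX1 at 168 against 59.5, PRRX2 at 119 against 47.8 and TWIST1 at 374 against 165 CPM. DKK1 was the lowest gene at 50 CPM or more, with 132 against 416 CPM (3.14-fold lower, 3.03 to 3.25), next to 109 CPM without induction. CHODL, a membrane lectin, was at 25.4 against 87.0 CPM, IGFBP3 at 146 against 413 CPM and G0S2, a lipase inhibitor, at 50.9 against 135 CPM. TAC1, the substance P precursor, was at 16.3 against 52.5 CPM, and MMP11, a matrix metalloproteinase, at 46.9 against 121 CPM. For CHODL, TAC1 and G0S2 the uninduced values of 26.2, 12.8 and 34.8 CPM lay near or below those at 45 days, so the 15 day library was the high one. For MMP11 and IGFBP3 the uninduced values of 122 and 307 CPM lay nearer those at 15 days, so the 45 day library was the low one. In this class at 5 CPM or more, 0.202% of all genes were higher and 0.331% lower. Of 26 measured limb mesenchyme factors 5 were higher and 0 lower. Of 15 visceral factors FOXF1 and TCF21 were lower, at 5.04 against 18.7 CPM and 42.3 against 107 CPM.

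Cluster 8 held the most mesenchymal-like cells in both libraries. The next at 45 days was cluster 7, with 1397 cells against 49 at 15 days. The next at 15 days was cluster 4, with 581 cells at 45 days and 624 at 15 days. Cluster 0 held 690 cells at 45 days and 110 at 15 days. Cluster 7 was led by LHX9 and HOXD13, and cluster 4 by CDKN2B-AS1, G0S2 and CHODL. SFRP2 and TWIST1 were among the leading genes of cluster 0. Since these genes helped to build the clusters, the ratios inside a cluster are not independent of them. Of the 10 mesenchymal clusters 6 had at least 200 cells in each library (clusters 1, 2, 4, 8, 10 and 12). DKK1 was at least 2-fold lower in all 5 of these that it did not lead, with log2 ratios from -2.41 to -1.25. In cluster 8 it was at 60.1 against 341 CPM. LHX9 was above 0 in all 5 that it did not lead and past 2-fold in 2 of them. TWIST1 was above 0 in all 6 but past 2-fold in 0, with log2 ratios from 0.12 to 0.65. PITX1 was past 2-fold in 1 of 6 and KRT17, a keratin of basal epithelium, in 4 of 6. IGFBP3 was past 2-fold lower in 3 of 6 and above 0 in 1. Inside single clusters the TWIST1 ratios were thus smaller than in the whole class.

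With both libraries given the same mix of mesenchymal clusters, 4 genes were at least 2-fold higher (ACTC1, ASPN, KRT17 and LHX9) and 10 lower. The 10 were DKK1, IGFBP3, CDKN2A, STC1, MT2A and the 5 liver genes of the rule. LHX9 was then at 83.9 against 33.3 CPM and DKK1 at 144 against 411 CPM. TWIST1 was at 294 against 213 CPM (log2 ratio 0.45 in place of 1.16), PITX1 at 133 against 80.7 CPM, and HOXD13 at 31.2 against 23.7 CPM. Across the 6 clusters, of 7640 genes 8 were at least 2-fold lower in every cluster, and 0 were higher in every cluster. ALB, AFP, APOA1, APOA2 and TTR, which chose the members, were 5 of the 8, so their part is a description. The rest were FABP1, APOC3 and SERPINA1, also liver genes.

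**Figure D4:**
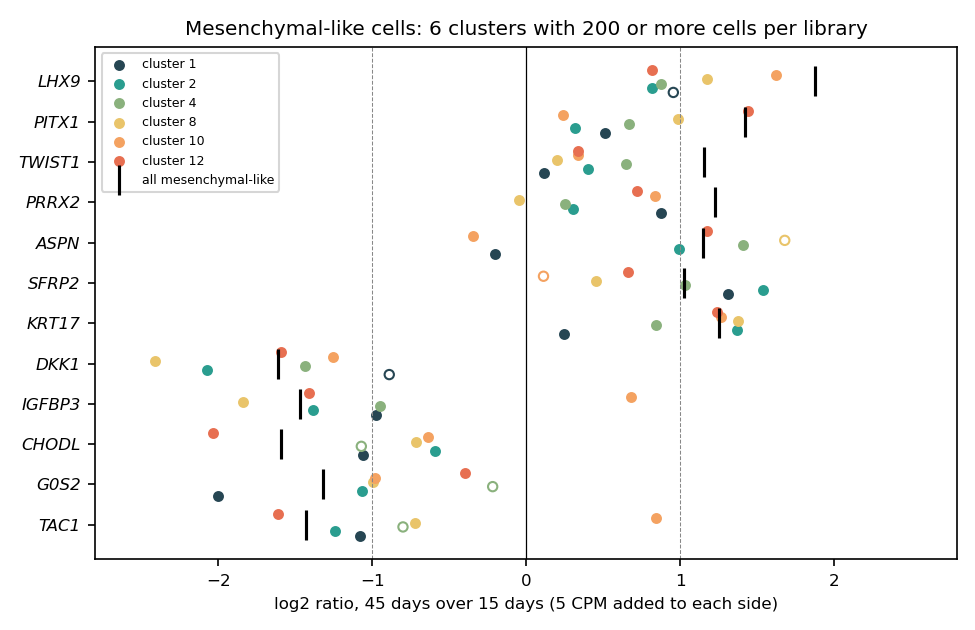
Log2 ratio of 12 genes inside each of the 6 mesenchymal-like clusters with at least 200 cells per library (points) and in all mesenchymal-like cells (black bars). Open points mark a cluster that the gene leads, and dashed lines mark 2-fold; the DKK1 points all lie below 0 and the LHX9 and TWIST1 points all above 0.

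Mural-like cells had the fewest genes past 2-fold of the 4 classes compared. Of 6263 genes tested 5 were higher (0.0798%) and 11 lower (0.176%). DKK1 was at 39.6 against 96.1 CPM and MMP11 at 110 against 246 CPM, both also lower in mesenchymal-like cells. The 3 genes higher in both classes were CXCL14, KRT17 and SFRP2, and the 7 lower in both were DKK1, MMP11, CCDC68, AFP, ALB, APOA1 and APOA2. AFP, ALB, APOA1 and APOA2 chose the members, so their part in this count is a description. The highest genes at 50 CPM or more, all under 2-fold, included SLC2A1, the glucose transporter GLUT1, at 96.6 against 48.8 CPM, and PLOD2, a collagen lysyl hydroxylase, at 94.7 against 47.9 CPM.

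Genes of the hypoxia and glycolysis list had ratios above 0 in the vascular classes. Hypoxia-inducible factors bind a short core, ACGTG, in their target genes, and many targets serve glycolysis, collagen hydroxylation and vessel growth. In mural-like cells 25 of 26 measured genes were above 0 with a median log2 ratio of 0.42, against -0.02 for all genes of the class; NDRG1, a stress-response gene, was the gene past 2-fold at 38.4 against 16.3 CPM. In this class 0.0647% of all genes at that level were higher and 0.185% lower. In endothelial-like cells 25 of 26 were above 0, the median was 0.43 against -0.01 for all genes, and none passed 2-fold. VEGFA was at 69.2 against 35.4 CPM there and at 95.1 against 57.2 CPM in mural-like cells. LDHA, lactate dehydrogenase, was at 950 against 561 CPM in endothelial-like cells, and P4HA1, a collagen prolyl hydroxylase, at 150 against 81.4 CPM. In mesenchymal-like cells the median was 0.12. Their cluster 2, with ANKRD37, P4HA1 and PFKFB4 among its leading genes, made up 9.95% of members at 45 days and 6.14% at 15 days. In neuron-like cells the median was -0.34, with SLC2A1 at 68.2 against 132 CPM. The ratios thus lay on opposite sides of 0 in the vascular and the neuron-like cells, a difference that was not tested. The median mitochondrial share was 4.55% against 5.45% in mural-like cells. It was 5.54% against 6.18% in endothelial-like cells. Without cells under 1% mitochondrial UMIs, the log2 ratio of NDRG1 in mural-like cells was 0.96 in place of 1.03, under 2-fold. That of VEGFA there was 0.68 in place of 0.69. In endothelial-like cells LDHA was at 0.73 in place of 0.75 and VEGFA at 0.98 in place of 0.88. ANKRD37 there was at 1.07 in place of 0.96, past 2-fold. Apart from these values, the part of the mitochondrial share in these ratios was not tested.

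The promoters of 24 of the 27 listed genes were matched by symbol in RefSeq (GRCh38.p14), as 250 bases before to 50 after the start. ACGTG, or its reverse complement CACGT, stood in 11 of the 24 (45.8%), against 21.6% of all 27305 promoters. Both motifs overlap in CACGTG, which other factors bind. HK2, CA9, LDHA, GAPDH, ENO2, ALDOA, ALDOC and PGK1 also held a match and are not shown. The windows of 3 list genes and of PLOD2, which is outside the list, are shown as examples. Their log2 ratios were above 0, though under 2-fold, in mural-like cells. Nearly all measured list genes were above 0 there, so this did not single them out. The match is in capitals, each window 5′ to 3′ on the strand of the gene.
ANKRD37, chr4:185396686-185396714, plus strand: cagtgtttgtgtACGTGcggccgtggcgg
PLOD2, chr3:146161314-146161342, minus strand: caaacagtccagACGTGgggcccaggagg
P4HA1, chr10:73096936-73096964, minus strand: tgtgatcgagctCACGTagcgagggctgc
BNIP3, chr10:131982040-131982068, minus strand: cgcacgcgccgcACGTGccacacgcaccc
A match is a description of the letters and not evidence of binding. SLC2A1, VEGFA and NDRG1 are not shown, since SLC2A1 had no match in its window and the others were not among the matched promoters.

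In endothelial-like cells 13 of 7247 genes were higher (0.179%) and 26 lower (0.359%). Of 24 measured genes of the endothelial list none passed 2-fold within the class, and the median was -0.09. PECAM1 was at 1207 against 1279 CPM and KDR at 869.6 against 1059 CPM. Several genes of this list, PECAM1 and KDR among them, are markers that named the class, so their level within it is a description. APLNR, the apelin receptor of sprouting and venous endothelium, was at 22.1 against 146 CPM (6.61-fold lower, 4.78 to 9.36), and 148 CPM without induction. MADCAM1, an adhesion molecule for lymphocytes of gut vessels, was at 10.5 against 86.1 CPM, and NKX2-3, a factor that controls it in gut and spleen, at 21.6 against 75.2 CPM. KLF2, a flow-responsive factor, was at 84.1 against 218 CPM. At 45 and 15 days 10 cells held 80% and 41.5% of the APLNR UMIs, and 78.9% and 59.2% of the MADCAM1 UMIs. Of 21 measured immediate early and stress genes 5 were lower, KLF2 among them, and 0 higher. Of all genes at that level in the class 0.528% were lower and 0.352% higher. ATF3 was at 9.96 against 38 CPM, FOSB at 4.98 against 22.1 CPM, DUSP1 at 50.4 against 109 and HSPA1A at 51.5 against 134 CPM. These genes also respond to cell dissociation, whose part in the result was not tested.

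Among the higher genes of endothelial-like cells, MMP9, a gelatinase, was at 96.3 against 32.4 CPM, with 87.9% of the 45 day UMIs in 10 cells. UNC5B-AS1, a noncoding RNA antisense to a netrin receptor gene, was at 237 against 89.7 CPM and 13.6 CPM without induction. TWIST1 was at 62.5 against 13.9 CPM, and the 12 mesenchymal markers summed to 730 against 510 CPM in these cells. With doublets left out TWIST1 was at 37.1 against 3.73 CPM and UNC5B-AS1 at 267 against 105 CPM. Leaving doublets out gave 25 higher genes, of which 6 were among the 13, and 35 lower, of which 21 were among the 26. The higher set was thus the less settled side.

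**Figure D5:**
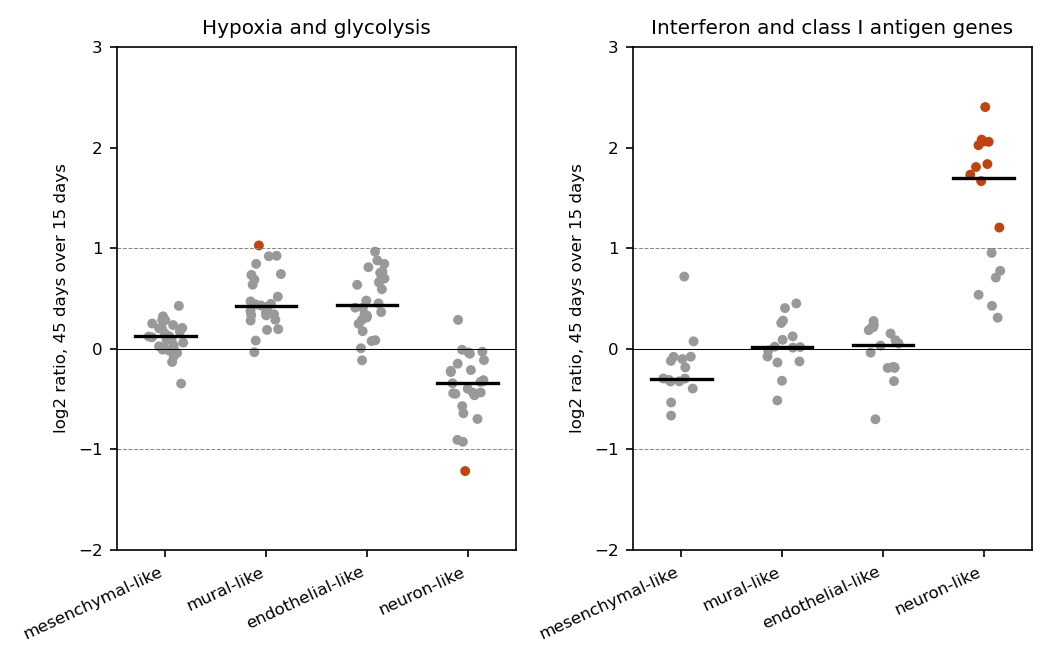
Log2 ratio of the measured genes (points, past 2-fold in colour) of the hypoxia and glycolysis list (left) and of the interferon and class I antigen list (right) in 4 classes, with medians as black bars and 2-fold as dashed lines. Hypoxia medians were 0.42 and 0.43 in mural-like and endothelial-like cells, and the antigen list median was 1.70 in neuron-like cells.

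Neuron-like cells had the most genes past 2-fold of the 4 classes, in sums over 315 and 304 cells, with 129 of 7345 genes higher (1.76%) and 92 lower (1.25%). NEUROD1 was at 715 against 11.5 CPM, 62.3-fold (48.4 to 81.5). Of 25 measured genes of neurofilaments and axons none passed 2-fold within the class, and the median was -0.20. Several general neuronal genes, STMN2 and DCX among them, are markers that named the class, so their level within it is a description. STMN2, a growth cone protein, was at 3714 against 4492 CPM, and DCX, doublecortin of young neurons, at 852 against 859 CPM. The lower neuronal levels in the sum of all members thus stood beside a smaller share of neuron-like UMIs. Of 18 measured neurogenic factors 6 were at least 2-fold higher, NEUROD1 among them, and 0 lower, with a median of 0.58 against 0.08 for all genes of the class at that level. INSM1, a zinc finger factor of newborn neurons, was at 67.3 against 9.63 CPM, HES6 at 95 against 21.7, NHLH1 at 44.5 against 11.1, NHLH2 at 51.1 against 20.0 and SOX11 at 475 against 233 CPM. Without cells under 1% mitochondrial UMIs the log2 ratios of these 5 were above 0, INSM1 at 1.89 and SOX11 at 0.94, the latter under 2-fold.

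Helix-loop-helix factors such as NEUROD1 bind E-boxes, among them the form CAGATG. Of the 24 genes on the neurogenic list 16 were matched in RefSeq promoters (GRCh38.p14), and CAGATG or CATCTG stood in 3 of them (18.8%), against 14.8% of all promoters. NHLH1 and NHLH2, 2 close relatives, held 1 match each, and NEUROD1, HES6 and NEUROD4 held none. The 2 windows are shown because both genes were past 2-fold in neuron-like cells, with the match in capitals.
NHLH1, chr1:160366849-160366878, plus strand: atgcatggagaaCAGATGtccctgctcccc
NHLH2, chr1:115841246-115841275, minus strand: cccacactgtgaCAGATGtcaagtccaatt

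Genes of antigen presentation were higher together in neuron-like cells. All 16 measured genes of the interferon and class I list were above 0, 10 were at least 2-fold higher, and the median was 1.70. Of all genes at that level 1.84% were higher and 1.06% lower. HLA-B, a class I heavy chain, was at 536 against 97.3 CPM, B2M, its light chain, at 1768 against 415 CPM, and HLA-C at 557 against 133 CPM. PSMB9 and PSMB8, subunits of the immunoproteasome, were at 20.4 against 1.11 and 56.5 against 12.2 CPM, and TAP1, a peptide transporter, at 26.7 against 5.00 CPM. In the other classes none of the list passed 2-fold, with medians of -0.30, 0.02 and 0.04 in mesenchymal-like, mural-like and endothelial-like cells; the difference between classes was not tested. In mesenchymal-like cells HLA-B was at 46.5 against 44.0 CPM and B2M at 590 against 779 CPM. The level was not set by a few cells, as 10 cells held 20.5% and 26.9% of the HLA-B UMIs at 45 and 15 days. With doublets left out HLA-B was at 539 against 95.7 CPM, and without cells under 1% mitochondrial UMIs at 526 against 97.9 CPM.

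Single neuron-like cells weighed heavily on several other genes. SCGN, secretagogin, a calcium sensor of neuroendocrine cells, was at 23.4 against 400 CPM. All its 45 day UMIs in the class lay in 10 cells, and 10 cells held 58.5% of its 15 day UMIs. TAC1 was at 251 against 28.9 CPM, with 98.4% of the UMIs at 45 days in 10 cells. GAL, galanin, was at 61.3 against 5.93 CPM, with 66.2% in 10 cells, and VSNL1, a calcium sensor, at 163 against 23.0 CPM, with 48.6%. ISL2, a factor of motor and sensory neurons, was lower at 25.8 against 77.1 CPM with 48.8% and 35.1% of the UMIs in 10 cells at 45 and 15 days. LIX1 was at 29.1 against 207 CPM, with 86.6% and 36.0% of the UMIs in 10 cells at 45 and 15 days. At 15 days LIX1 was found in 115 of the 304 cells, so it was less held by few cells there. TMEM233 was at 10.5 against 122 CPM, with 80% and 64.2% in 10 cells. With 315 and 304 cells in the class, the genes held by few cells describe those cells rather than the class.

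Depth and the level of mesenchymal genes also differed in the neuron-like comparison. The median neuron-like cell had 5526 UMIs at 45 days and 9835.5 at 15 days, and 37.5% against 16.8% of these cells had under 1% mitochondrial UMIs. The 12 mesenchymal markers summed to 362 against 77.6 CPM in the class. Whether this was the cells' own RNA or came from other cells was not tested. Of 9 measured fibrillar collagen genes 6 were past 2-fold higher, with COL1A2 at 65.8 against 12.2 CPM. With doublets left out COL1A2 was at 38.3 against 11.9 CPM and 83 genes were higher, 77 of them among the 129. Endothelial markers summed to 66.7 against 90.8 CPM and haematopoietic markers to 16.2 against 10.7 CPM in the class. The part of these differences in the other results of the class was not tested, apart from the values given without doublets and without cells low in mitochondrial RNA.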

How the data were processed

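Libraries were made with 10x Chromium 3′ v3 chemistry. The deposited values are raw UMI counts per gene and barcode made by the authors with Cell Ranger 3.0.0 on GRCh38, per the submitters' processing notes; the file headers name software version 3.0.1, and the annotation is not given in the sources used here. UMIs limit amplification bias, but RNA from broken cells is counted in other droplets. Of 33538 gene identifiers 33456 matched GENCODE 29, the source of coordinates. Counts were summed over cells and scaled to CPM, with 1 library a side and no test. Folds carry exact conditional binomial and shares Clopper-Pearson 95% intervals. The fold and interval code was tested on simulated data. Member cells of the 3 libraries were clustered with scanpy 1.11.5, without integration (totals of 10000, 2000 variable genes, 30 components, 15 neighbours, Leiden resolution 1.0). A cluster took an "X-like" name when at least 3 and at least 1 in 3 of a class's markers were 2-fold above other cells with a UMI in 10% of its cells, and stayed unnamed where other classes' markers led it; mesenchymal clusters were judged on 4 markers against the other named clusters. The naming rule was set with the data in view. Doublets (highest scores at 0.8% per 1000 barcodes) were kept, and leaving them out was an alternative. Genes named were the 20 highest and 20 lowest at 20 CPM, NEUROD1, the 2 highest and 2 lowest of each of 33 lists, the 8 highest and 8 lowest per class at 50 CPM, and further members of a list beside its count. GREM1, ACTC1, STC1, MT2A, CDKN2A, KRT17 and CCDC68 were named after their values were seen where they fell outside this rule. The members and lists were chosen with earlier results of these data known. Sex-linked genes were left out. TMM factors came from edgeR 4.0.16. A few genes that the naming rule picked are not reported here.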

Additional observations from a re-analysis of the deposited data

Results flagged for a closer look

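TAC1 lay on opposite sides in the libraries' neuron-like and mesenchymal-like cells: its log2 ratio of 45 over 15 days was 2.91 in neuron-like cells and -1.43 in mesenchymal-like cells. With 1 library a side the difference between the classes was not tested. In neuron-like cells 10 cells held 98.4% of the TAC1 UMIs at 45 days and 93.6% at 15 days.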

How the results depend on the processing

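In member cells, the 12 higher genes became 20 with TMM scaling, 20 with median of ratios scaling, 20 with 1 CPM added and 20 with no filter on low values, and 7 with the same mix of clusters, of which 3 were among the 12. The 99 lower genes became 45 at a floor of 50 CPM, 48 without neuron-like, endothelial-like and cycling cells, 27 with the same mix of classes and 17 with the same mix of clusters, of which 24 and 14 were among the 99. With TMM scaling all 12 higher genes were kept and 83 genes were lower, and the scaling shifted log2 ratios by 0.10. In mesenchymal-like cells, the 13 higher genes became 22 with 1 CPM added, 8 at a floor of 50 CPM and 4 with the same mix of clusters, and the 28 lower became 14 at a floor of 50 CPM and 10 with the same mix of clusters. In neuron-like cells the 129 higher genes became 83, and in endothelial-like cells the 13 became 25, with doublets left out. SERPINA1, at -1.58, reversed to 0.18 with the same mix of classes and 0.21 with the same mix of clusters. At 45 days the 19 cells of cluster 9 held 295 of its 317 UMIs, and 10 cells held 96.2%. In the named classes it was at up to 2.95 CPM at 45 days and at 9.45 CPM or more at 15 days. The cause of the reversal was not tested. The 20 highest genes kept their direction in all these member-cell alternatives, with 4 to 19 past 2-fold, and of the 20 lowest SERPINA1 was the exception. The same mix of clusters, the sum without cluster 9, the ratios inside single clusters and the settings for neuron-like, endothelial-like and mural-like cells were chosen after seeing the data. No paired analysis was possible because each group is 1 library. Depth limits low genes: 3 UMIs are 0.0476 CPM at 45 days and 0.0655 CPM at 15 days.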
